A study of Mus musculus with 12 samples.

Results

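Protein synthesis depends on a set of soluble factors that act on the ribosome, and the transcripts of these factors were examined in calf muscle of mice with and without the mini-muscle phenotype. The genes were chosen by name: every gene with a probe set of its own whose symbol in the array's annotation begins with Eif (eukaryotic initiation factor) or Eef (eukaryotic elongation factor), without Eif4ebp1. This gave 58 of the 18194 genes on the array, each represented by the probe set of highest mean log2 intensity over the 12 arrays. Of the 58, 52 were above the dim limit, the median of the gene means at log2 8.56, and were tested with the other genes above it (9097 in all).

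The arrays came from gastrocnemius of 12 male mice of generation 37, 79 to 86 days old and 84 on average, from lines bred over generations for much wheel running. The 6 mini-muscle mice, of line 3, have small hindlimb muscles through a heritable trait, and 6 mice of line 8 had muscle of regular size. For mini-muscle the muscles of both limbs of a mouse were pooled, and for regular muscle 1 limb was taken from a mouse. Each group is therefore a single selected line, no arrays of the unselected control lines were used here, and phenotype, line and pooling of limbs cannot be told apart. Each array is a separate mouse, so n = 6 per group throughout. Array medians were 211.9 to 275.2 on the linear scale. Values below are log2 intensities, and a difference is that of mini-muscle from regular muscle, positive where mini-muscle was higher. A gene is said to have risen or fallen when its adjusted p, from limma with Benjamini-Hochberg adjustment over all 9097 genes, was under 0.05. In whole-muscle RNA, fewer cells of a type and less RNA per cell cannot be told apart.

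As background, initiation begins when eIF2, carrying GTP and the initiator tRNA, joins the small ribosomal subunit together with eIF1, eIF1A, eIF5 and the large scaffold eIF3. The eIF4 factors bind the mRNA cap and unwind the leader, and eIF2B recharges eIF2 with GTP, a step that kinases of eIF2 alpha block under stress. In elongation, eEF1A brings aminoacyl-tRNAs to the ribosome, the eEF1B subunits recharge eEF1A, and eEF2 moves the ribosome along the mRNA. In skeletal muscle eEF1A2, encoded by Eef1a2, takes over from eEF1A1 after birth.

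The factors changed in both directions, and the direction also differed between subunits of the same complex. Of the 52 tested, 10 rose, 13 fell and 29 did not pass. The share that passed, 44.2%, compares with 26.7% of all genes tested (14.9% rose and 11.8% fell). These factors are brighter than most genes, with a median level of 12.35 against 10.40 for all genes tested, and brighter genes passed more often. Among genes under a mean log2 of 12, 6 of 23 factors passed (26.1%) against 22.2% of all 7364. From 12 to 14, 8 of 18 factors passed (44.4%) against 44.7% of all 1307. From 14 to 16, 9 of 11 factors passed (81.8%) against 51.5% of all 355; these differences in share were not tested. The median difference was -0.01 for the factors and 0.03 for all genes. Every mini-muscle array lay above every regular-muscle array for 9 of the factors and below for 6, against 6.86% and 6.11% of all genes tested. Such separation was also commoner among brighter genes. Under a mean log2 of 12, 440 of 7364 genes lay above and 289 below. From 12 to 14, 137 of 1307 lay above and 188 below, and from 14 to 16, 47 of 355 above and 63 below. The counts of the factors were not tested against these. Changes of at least 1.5-fold were seen in 3 that rose (Eif3d, Eif2b4 and Eif3c) and 1 that fell (Eif2s2), against 6.69% and 4.27% of all genes tested. With arrays centred on their medians, 9 rose and 4 fell, and the 4 were Eif2s2, Eif2b2, Eif4e and Eef1akmt1; of all genes tested 10.9% then rose and 7.16% fell. Without the intensity trend in limma's variance model, 10 rose and 8 fell (14.2% and 10.7% of all genes). With each gene's probe sets averaged 6 rose and 9 fell (9.48% and 7.49% of all genes).

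**Figure D1:**
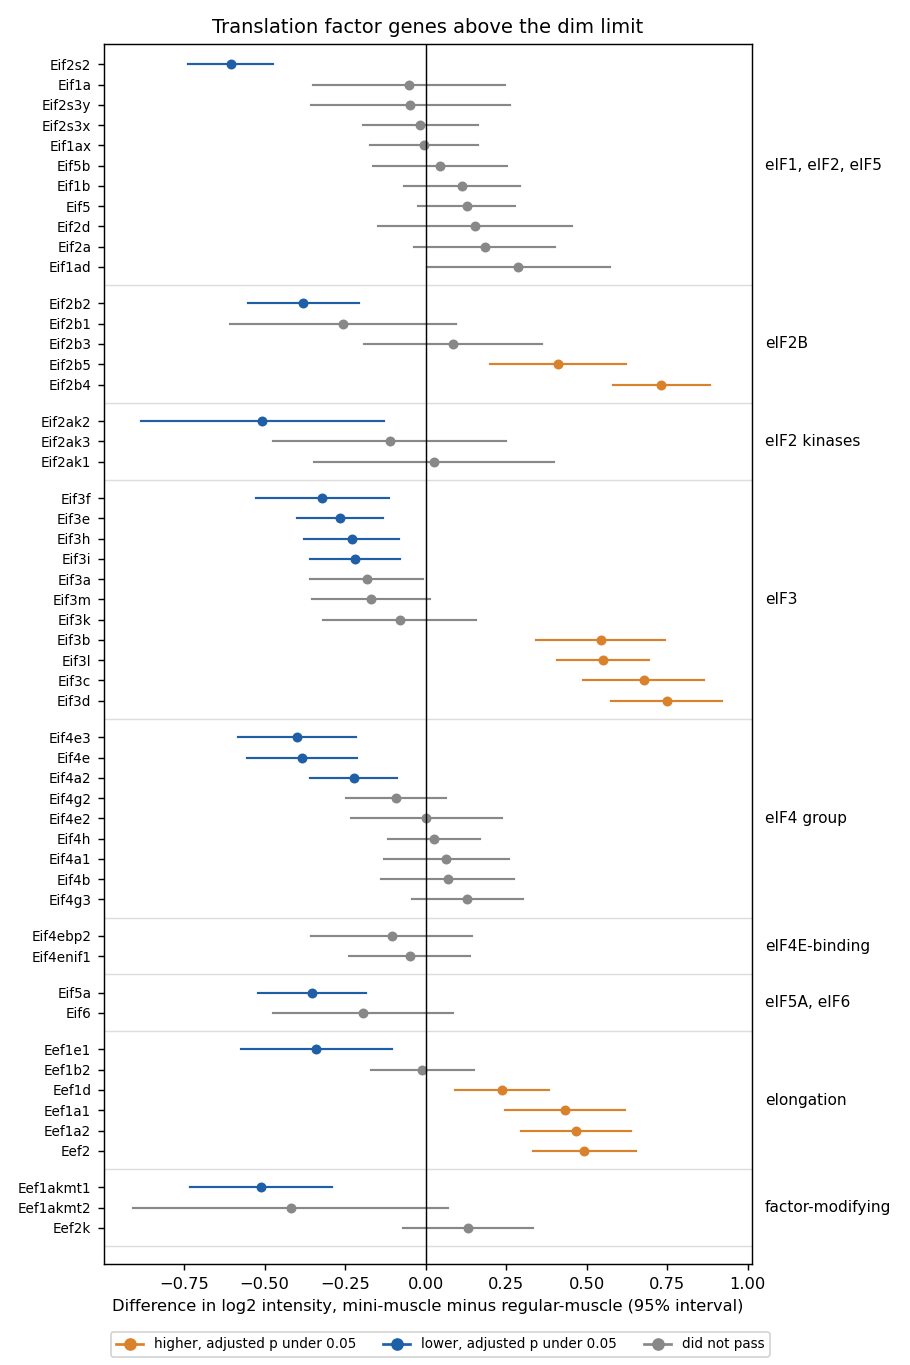
Difference in log2 intensity (mini-muscle minus regular-muscle, point) and its 95% interval from limma (line) for the 52 translation factor genes above the dim limit, grouped by role on the vertical axis. Orange marks the 10 that rose and blue the 13 that fell; the eIF3 subunits fall into 4 that rose by 0.54 to 0.75 and 7 with differences of -0.32 to -0.08.

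The sequences just before the annotated starts of 6 genes are shown because these genes carry the clearest patterns described here: the elongation factors Eef1a1, Eef1a2 and Eef2, which rose together, the largest increases among eIF3 and eIF2B subunits (Eif3d and Eif2b4), and the largest decrease (Eif2s2). Each is the 120 bases before the start of the RefSeq transcript in assembly GRCm38.p6, 5′ to 3′ on the strand of the gene. Capitals mark matches, on either strand, to GGGCGG (the GC box), to CCAAT (the CCAAT box), to CACGTG (an E-box) or to TATAAA (the TATA box). The regions are chr9:78481725-78481844 (- strand), chr2:181157016-181157135 (- strand), chr10:81176511-81176630 (+ strand), chr5:31193140-31193259 (- strand), chr15:77970825-77970944 (- strand) and chr2:154892907-154893026 (- strand).
Eef1a1: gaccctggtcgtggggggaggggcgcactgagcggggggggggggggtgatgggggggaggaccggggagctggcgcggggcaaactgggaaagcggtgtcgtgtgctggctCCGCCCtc
Eef1a2: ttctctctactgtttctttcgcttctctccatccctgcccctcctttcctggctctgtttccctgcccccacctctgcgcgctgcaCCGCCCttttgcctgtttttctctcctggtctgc
Eef2: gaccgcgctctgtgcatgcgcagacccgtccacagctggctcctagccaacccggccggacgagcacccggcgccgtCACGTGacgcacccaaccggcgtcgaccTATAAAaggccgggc
Eif2b4: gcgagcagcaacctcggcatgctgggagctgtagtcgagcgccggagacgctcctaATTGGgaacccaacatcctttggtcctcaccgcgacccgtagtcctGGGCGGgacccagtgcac
Eif3d: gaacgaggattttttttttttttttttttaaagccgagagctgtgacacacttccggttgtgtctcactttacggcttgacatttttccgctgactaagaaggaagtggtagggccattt
Eif2s2: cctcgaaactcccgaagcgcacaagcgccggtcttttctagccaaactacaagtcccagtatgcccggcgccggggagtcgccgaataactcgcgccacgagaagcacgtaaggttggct
The 3 elongation factors share no single layout of these motifs: Eef2 has TATAAA beginning 15 bases before the start and CACGTG 43 bases before it, whereas Eef1a1 and Eef1a2 have a GC box, beginning 8 and 34 bases before the start, and no TATAAA in these windows. The windows of Eif3d and Eif2s2 hold none of the motifs. RefSeq promoters were found for 48 of the 58 genes, with 63 starts. In the 250 bases before a start, GGGCGG occurred on either strand in 66.7% of the 63 windows and in 32.7% of all 32851 promoter windows of the table, and CACGTG in 20.6% against 6.02%. TATAAA occurred in 6.35% against 12.4%, and CCAAT in 23.8% against 33.8%. Promoters were found for 9 of the 10 genes that rose, where 6 of 9 windows held GGGCGG and 1 of 9 held CACGTG. For those that fell, 14 windows came from 8 of the 13 genes, and windows of 1 gene are not separate observations. Of these 14, 5 held GGGCGG and 5 held CACGTG. TGATGCAA, a form of the amino acid response element, was in 0 of the 63 windows and in 0.791% of all. None of these differences in share was tested.

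The core elongation factors were higher in mini-muscle. Eef2, which encodes the translocase eEF2, read 15.08, 15.20 and 15.33 (lowest, median and highest) in mini-muscle and 14.47, 14.71 and 14.86 in regular muscle. It was 1.41-fold higher (difference 0.49, SE 0.08, adjusted p = 1.0e-04); with its probe sets averaged, dim ones included, the call was lost (0.30, adjusted p = 0.74). Eef1a2, the eEF1A of adult muscle, read 15.83, 16.06 and 16.09 against 15.37, 15.49 and 15.81. Every mini-muscle array was above every regular-muscle array for both genes, although for Eef1a2 the nearest arrays of the groups differed by little. The rise of Eef1a2 was 1.38-fold (difference 0.47, SE 0.08, adjusted p = 2.9e-04).

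Eef1a1, the eEF1A form found in most other tissues, also rose, at 14.83, 14.99 and 15.17 against 14.35, 14.50 and 14.83. Its difference was 0.43 (SE 0.09, adjusted p = 0.0012), and the groups met without overlapping. The 2 forms of eEF1A did not differ detectably in their response. The group difference of Eef1a2 exceeded that of Eef1a1 by 0.04, with a 95% interval of -0.32 to 0.39 (two-sided exact permutation test, p = 0.84, adjusted p = 0.86 over 4 pairs of related genes).

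The exchange factor subunits of eEF1 were not alike. Eef1d, the delta subunit that recharges eEF1A with GTP, rose by 0.24 (13.41 ± 0.11 against 13.17 ± 0.05, SE 0.07, adjusted p = 0.016), and lost its call with median centring (adjusted p = 0.18) and with averaged probe sets (0.45, adjusted p = 0.13). Eef1b2, the other measured recharging subunit, differed by -0.01 with a 95% interval of -0.17 to 0.15. Eef1e1 fell by 0.34 (SE 0.11, adjusted p = 0.031). Despite its symbol, its product is a small protein of the multi-tRNA synthetase complex. The call of Eef1e1 was lost without any one of mini-muscle replicates 2, 5 or 6 or regular-muscle replicates 2, 4, 5 or 6 (adjusted p up to 0.077), with median centring (adjusted p = 0.13), and without the intensity trend (adjusted p = 0.052).

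Of the 3 tested enzymes that modify the elongation factors, 1 fell and 2 did not pass (33.3% called, against 26.7% of all genes tested). Eef1akmt1, a lysine methyltransferase of eEF1A, fell by 0.51 (10.84 ± 0.12 against 11.35 ± 0.20, SE 0.10, adjusted p = 0.0012), and no mini-muscle array (10.66 to 10.95) reached the lowest regular-muscle array (11.05). Eef1akmt2, another such enzyme, differed by -0.42 (adjusted p = 0.21). Eef2k, the calcium- and calmodulin-dependent kinase that inhibits eEF2, differed by 0.13 (95% interval -0.07 to 0.33, adjusted p = 0.35).

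**Figure D2:**
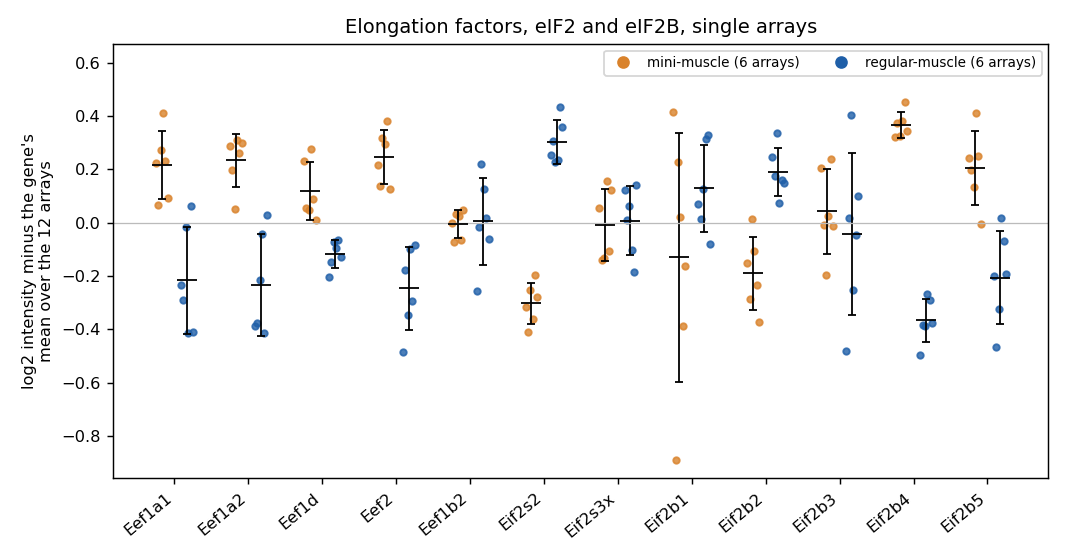
Log2 intensity of each array minus the mean of the gene over the 12 arrays, for 5 elongation factor genes, Eif2s2, Eif2s3x and the 5 eIF2B subunits; points are single arrays and black bars the group mean ± SD (n = 6). Orange (mini-muscle) and blue (regular-muscle) points separate for Eef1a1, Eef1a2, Eef1d, Eef2, Eif2s2, Eif2b2 and Eif2b4, and overlap for the others.

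Subunits of eIF3, the largest initiation factor, split into subunits that rose and subunits that fell. Of the 11 measured, 4 rose, 4 fell and 3 did not pass. The share called, 72.7%, compares with 26.7% of all genes tested. Among brighter genes, 44.7% passed at a mean log2 of 12 to 14 and 51.5% at 14 to 16. All of these subunits but Eif3b had means above 12, and the differences in share were not tested. Eif3d, whose product can itself bind mRNA caps, read 12.39, 12.68 and 12.71 in mini-muscle and 11.76, 11.91 and 11.98 in regular muscle, and was 1.68-fold higher (difference 0.75, SE 0.08, adjusted p = 2.5e-06); averaging its probe sets, dim ones included, gave 0.16 (adjusted p = 0.77). Eif3c, a core scaffold subunit, read 13.55, 13.76 and 13.92 against 12.79, 13.06 and 13.28, which is 1.60-fold higher (difference 0.68, SE 0.09, adjusted p = 1.9e-05). All mini-muscle arrays were above all regular-muscle arrays for both.

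Eif3l varied little within the groups, at 12.68 ± 0.06 against 12.13 ± 0.04, and rose by 0.55 (SE 0.07, adjusted p = 9.1e-06). Eif3b, a scaffold subunit with a beta-propeller domain, rose by 0.54 (11.89 ± 0.16 against 11.35 ± 0.13, SE 0.10, adjusted p = 3.2e-04). Neither gene's groups overlapped. The 4 increases had 95% intervals that all lay above 0.34.

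The 4 decreases were smaller. Eif3e fell by 0.27 (SE 0.06, adjusted p = 0.0039), with the highest mini-muscle array at 14.27 and the lowest regular-muscle array at 14.33; averaging its probe sets, dim ones included, gave -0.02. Eif3f, a subunit known as a target of the muscle ubiquitin ligase atrogin-1, fell by 0.32 (14.35 ± 0.21 against 14.67 ± 0.17, SE 0.10, adjusted p = 0.021). Eif3h, which carries the same kind of MPN domain as Eif3f, fell by 0.23 (adjusted p = 0.020), and Eif3i, a beta-propeller subunit that binds eIF3b, by 0.22 (adjusted p = 0.020). For Eif3f, Eif3h and Eif3i the groups overlapped. The call of Eif3f needed mini-muscle replicate 1, its lowest array at 13.99 (adjusted p = 0.0503 with it left out). That of Eif3h needed mini-muscle replicate 2 and regular-muscle replicate 5 (adjusted p up to 0.053 with either left out). Each of the 4 lost its call with arrays centred on their medians (adjusted p 0.10 to 0.25), although their differences were then nearly as large (-0.31 for Eif3f, -0.25 for Eif3e, -0.22 for Eif3h and -0.21 for Eif3i). Eif3f, Eif3h and Eif3i also lost it without the intensity trend (adjusted p 0.052 to 0.058), and Eif3i also after quantile normalization (-0.14, adjusted p = 0.11), while the 4 increases kept theirs under these settings.

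Eif3a, the largest subunit, differed by -0.18 (95% interval -0.36 to -0.01, adjusted p = 0.12). It passed without regular-muscle replicate 1 (-0.24, adjusted p = 0.026), which at 12.65 was the lowest of its group. Eif3m (-0.17) and Eif3k (-0.08) did not pass. Among the 6 measured subunits with a PCI domain (Eif3a, Eif3c, Eif3e, Eif3k, Eif3l and Eif3m), 2 rose, 1 fell and the others did not pass. Whether the direction is related to that domain was not tested.

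**Figure D3:**
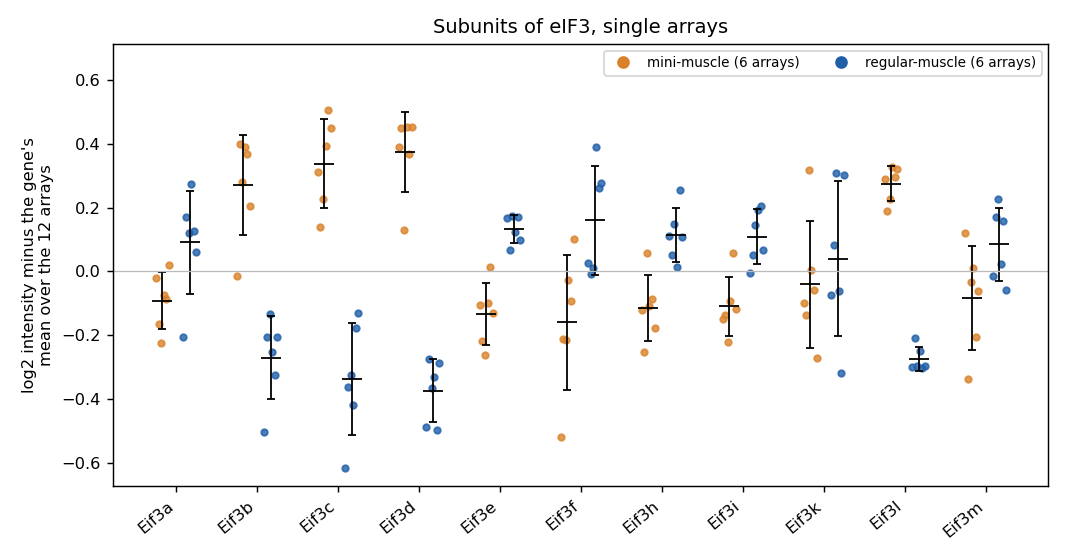
Log2 intensity of each array minus the mean of the gene over the 12 arrays, for the 11 measured eIF3 subunits; points are single arrays and black bars the group mean ± SD (n = 6). Orange mini-muscle points lie wholly above the blue regular-muscle points for Eif3b, Eif3c, Eif3d and Eif3l and wholly below them for Eif3e.

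Of the 3 measured genes of eIF2, which delivers the initiator tRNA, Eif2s2 fell and the genes of the gamma subunit did not pass; the alpha subunit was not analysed here. Eif2s2 encodes eIF2 beta and read 14.17, 14.28 and 14.38 in mini-muscle and 14.81, 14.86 and 15.02 in regular muscle. It was 1.52-fold lower (difference -0.61, SE 0.06, adjusted p = 1.4e-06), with a gap between the groups wider than the range within either. The gamma subunit, encoded on the X chromosome by Eif2s3x, read 12.69 ± 0.13 against 12.71 ± 0.13 (difference -0.02, 95% interval -0.19 to 0.16), and its Y-linked copy Eif2s3y differed by -0.05 (95% interval -0.36 to 0.26). The Y copy minus the X copy differed between the groups by -0.03 (95% interval -0.44 to 0.38, two-sided exact permutation test, p = 0.86).

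None of the other 8 genes of start codon selection and tRNA delivery passed. Of the 11 genes of this role, 9.09% were called, against 26.7% of all genes tested, a difference that was not tested. Eif5, the GTPase activator of eIF2, differed by 0.13 (95% interval -0.02 to 0.28) and Eif5b, which joins the ribosomal subunits, by 0.05. Probe sets above the dim limit ran from -0.08 to 0.38 for Eif5 and from -0.55 to 0.15 for Eif5b. The highest of Eif5 had a limma adjusted p of 0.023 over all single-gene probe sets. At the brightest probe sets Eif1ad had the largest difference of the 8, 0.29 (adjusted p = 0.13), and passed without mini-muscle replicate 5 (0.38, adjusted p = 0.038). Eif1ax, eIF1A of the X chromosome, differed by -0.01 at its brightest probe set but by -0.32 and -0.67 at its dimmer ones, and passed with the mean of its probe sets (-0.33, adjusted p = 0.011).

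The guanine nucleotide exchange factor eIF2B also had subunits in both directions. Of its 5 subunits, 2 rose and 1 fell (60.0% called, against 26.7% of all genes tested). By mean log2, 22.2% of all genes passed under 12 and 44.7% at 12 to 14, where Eif2b2 and Eif2b4 lay. The differences in share were not tested. Eif2b4, the delta subunit, read 12.65, 12.69 and 12.78 against 11.83, 11.95 and 12.06 and was 1.66-fold higher (difference 0.73, SE 0.07, adjusted p = 7.4e-07). Eif2b5, the catalytic epsilon subunit, rose by 0.41 (11.56 ± 0.14 against 11.15 ± 0.17, SE 0.10, adjusted p = 0.0049), with 1 mini-muscle array just below the highest regular-muscle array; averaged probe sets gave 0.10. Eif2b2, the beta subunit, fell by 0.38 (12.18 ± 0.14 against 12.56 ± 0.09, SE 0.08, adjusted p = 0.0020) without overlap. Eif2b1 (alpha, -0.26) and Eif2b3 (gamma, 0.09) did not pass, and Eif2b1 varied most of the 5, from 10.57 to 11.87 in mini-muscle.

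Of the kinases that phosphorylate eIF2 alpha, 1 of the 3 tested passed (33.3%, against 26.7% of all genes tested). Eif2ak2, the double-stranded RNA sensor PKR, fell by 0.51 from a low level (8.91 ± 0.33 against 9.41 ± 0.21, SE 0.18, adjusted p = 0.044), and the groups overlapped. The call was lost without any one of mini-muscle replicates 3 to 6 or regular-muscle replicates 1, 2, 4 or 5 (adjusted p up to 0.10) without the dim filter (adjusted p = 0.099), with median centring (adjusted p = 0.056), and with averaged probe sets (-0.01). Eif2ak3, the endoplasmic reticulum kinase PERK, differed by -0.11 and Eif2ak1, the haem-regulated kinase, by 0.03 (95% interval -0.35 to 0.40). Eif2ak4, the amino acid sensor GCN2, was below the dim limit at 7.12 ± 1.03 against 7.86 ± 0.44.

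Among the cap-binding factors, 3 of the 9 tested fell and 0 rose by limma, also at an unadjusted p under 0.05. The share called, 33.3%, compares with 26.7% of all genes tested. All of the 9 but Eif4e2 and Eif4e3 had means above 12. Of all genes this bright, 44.7% passed at a mean log2 of 12 to 14 and 51.5% at 14 to 16. The differences in share were not tested. Eif4e, the cap-binding protein itself, read 12.80, 13.01 and 13.16 against 13.19, 13.38 and 13.61 and fell by 0.38 (SE 0.08, adjusted p = 0.0016). Eif4e3, a relative that also binds caps, fell by 0.40 (11.43 ± 0.15 against 11.83 ± 0.06, SE 0.09, adjusted p = 0.0022). Every mini-muscle array lay below every regular-muscle array for both. Eif4a2, a helicase of the eIF4F complex, fell by 0.22 (SE 0.06, adjusted p = 0.015), with overlap. With averaged probe sets Eif4e (-0.08) and Eif4e3 (-0.27) lost their calls, and with median centring Eif4e3 (adjusted p = 0.050) and Eif4a2 (adjusted p = 0.20) did. Eif4a2 also lost it without the intensity trend (adjusted p = 0.057).

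Their relatives Eif4e2 and Eif4a1 differed by 0.00 (95% interval -0.24 to 0.24) and 0.06 (-0.13 to 0.26). The group difference of Eif4e2 exceeded that of Eif4e by 0.39 (95% interval 0.25 to 0.52, two-sided exact permutation test, p = 0.0022, the smallest these arrays allow, adjusted p = 0.0087 over 4 pairs). That of Eif4a2 was below that of Eif4a1 by 0.29 (95% interval -0.51 to -0.07, exact permutation p = 0.019, adjusted p = 0.039). The second result no longer passed in 7 of the 12 cases that left out 1 array (mini-muscle replicates 1, 3, 4 and 6 and regular-muscle replicates 2, 4 and 6; adjusted p 0.069 to 0.078). With the mean of all probe sets neither passed (0.17 and -0.15, adjusted p = 0.46 and 0.44). The probe set used for Eif4a1 had a mean log2 of 12.86. Its next brightest, at 12.84, gave -0.17, and its dimmest gave -0.10. The scaffold genes Eif4g2 (-0.09) and Eif4g3 (0.13), the helicase cofactors Eif4b (0.07) and Eif4h (0.03), and the repressors Eif4ebp2 (-0.11) and Eif4enif1 (-0.05) did not pass. Probe sets of Eif4b above the dim limit ran from 0.07 to 0.43, the highest with a limma adjusted p of 0.034 over all single-gene probe sets. The scaffold gene Eif4g1 had no probe set of its own and was not analysed.

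Eif5a, which encodes a hypusine-containing factor that relieves stalled ribosomes, fell by 0.35 (15.07 ± 0.14 against 15.42 ± 0.15, SE 0.08, adjusted p = 0.0029), and lost its call with median centring (adjusted p = 0.083). Eif6, which keeps the ribosomal subunits apart, differed by -0.20 (95% interval -0.47 to 0.08). Eif5a and Eif4a1 lie on chromosome 11 with 78 and 54 protein-coding genes between them and Myh4, the fast myosin gene at the locus to which the mini-muscle phenotype has been mapped.

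The remaining 5 genes below the dim limit were Eif4a3, Eif5a2, Eef1aknmt, Eef2kmt and Eefsec; their differences ran from -0.24 to 0.60 and were not tested. None of the 6 dim genes passed when all genes were fitted without the filter (limma adjusted p 0.40 to 0.93), and the groups overlapped for each.

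Probe sets of 1 gene shared their sign more often among the genes that changed than among the others, a difference that was not tested. The genes were split by the difference at their brightest probe set in these same data, and signs scatter where differences are near 0. The comparison is therefore no check of the calls. Of the 23 genes that changed, 12 had 1 probe set over the dim limit and 11 had several. In 9 of the 11 all such probe sets had the same sign. Of the 20 genes with several that did not pass, this held for 7, with Eif3a, for example, running from -0.18 to 0.32. Eif2s2 fell at 5 of 5 (-0.95 to -0.48 on the log2 scale), Eif3c was higher at 4 of 4 (0.52 to 0.68), and Eif3e (-0.38 to -0.27) and Eif2b2 (-0.40 to -0.38) were lower at 3 of 3. The exceptions were Eif4e, whose dimmer probe sets gave -0.06 and 0.18, and Eef1akmt1, with -1.04 and -0.71 at 2 others and 0.30 at the dimmest. Eif3d, Eif3b, Eif2b4, Eef2, Eef1a1 and Eef1a2 each rested on 1 probe set above the limit.

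**Figure D4:**
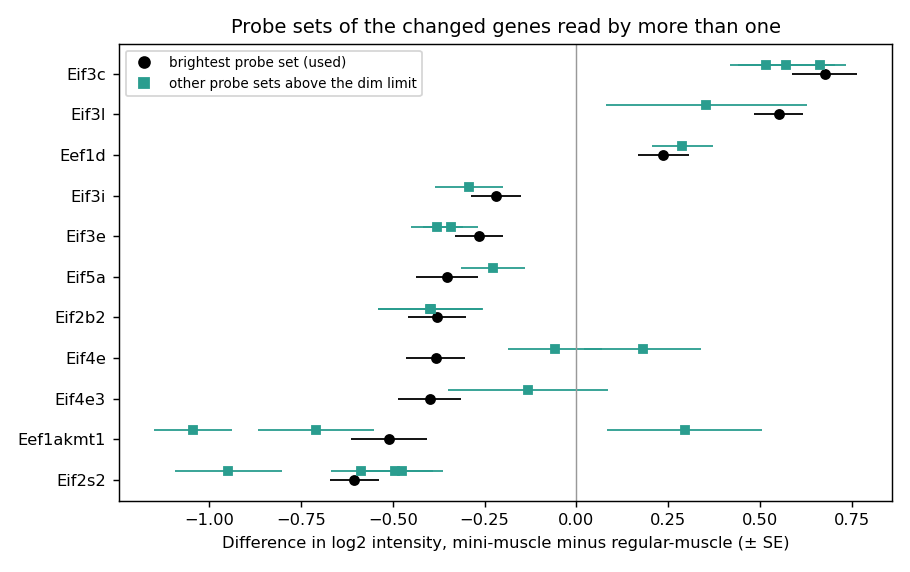
Difference in log2 intensity (mini-muscle minus regular-muscle) ± SE of every probe set above the dim limit, for the 11 changed genes read by more than 1; black circles are the brightest probe set, which was used, and green squares the others, all from a fit over all single-gene probe sets. The squares lie on the side of the circle for 9 genes, and cross 0 for Eif4e and Eef1akmt1.

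Other genes of protein synthesis and its control were counted in the same fit, in which 14.9% of all genes rose and 11.8% fell. Against the 26.7% of all genes, the share called was 25.0% for factor-modifying enzymes, 31.6% for mTORC1, 37.5% for mitochondrial factors, 45.0% for synthetases, 50.0% for poly(A)-binding and release factors and 60.0% for the stress response, in lists of 8 to 20 tested genes. Of 20 aminoacyl-tRNA synthetases and their complex partners, which load tRNAs with amino acids, 8 rose and 1 fell (median 0.11). Eprs, the glutamyl-prolyl-tRNA synthetase, rose by 0.76 (adjusted p = 5.2e-06) and Lars, the leucyl enzyme, by 0.49 (adjusted p = 4.8e-04). The gene that fell was Aimp2, a scaffold of the synthetase complex (-0.70, adjusted p = 3.5e-06). Of the 19 tested genes of mTORC1 signalling and translational control, 5 rose and 1 fell (median 0.12). Mknk2, a kinase of eIF4E, rose by 0.85 (15.17 against 14.32, adjusted p = 5.3e-05), Rptor, the raptor subunit of mTORC1, by 0.54 (adjusted p = 0.0037) and Tsc2, an inhibitor of the pathway, by 0.64 (adjusted p = 0.0046). Eif4ebp1, the eIF4E repressor that the choice of genes leaves out, rose by 0.34 (adjusted p = 0.032). The gene that fell, named after its value was seen, was Rheb, the activator of mTORC1 (-0.30, adjusted p = 0.013).

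Genes of the integrated stress response, the programme set off by eIF2 alpha phosphorylation, changed both ways, with 3 of 10 higher and 3 lower (median -0.13). Atf4, its central transcription factor, fell by 0.43 (adjusted p = 4.1e-04) and Chac1, a glutathione-degrading target of it, by 1.47 (adjusted p = 2.2e-05), whereas Asns, asparagine synthetase, rose by 1.18 (adjusted p = 0.0028). Of 8 poly(A)-binding and release factor genes, 1 rose, the poly(A)-binding protein gene Pabpc4 (0.42), and 3 fell, among them Paip1, a partner of poly(A)-binding protein (-1.36), and the release factor gene Etf1 (-0.45). Of 8 tested enzymes that modify translation factors, Dph3, needed to make diphthamide on eEF2, fell by 0.47 and Ppp2ca, a phosphatase subunit, rose by 0.21. Of 8 mitochondrial translation factors, Mtif3 rose by 0.41, and Mtif2 (-0.70) and Mtrf1l (-0.56) fell.

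The arrays had the defining transcripts of skeletal muscle: all 10 markers were above the dim limit, with Ckm, muscle creatine kinase, at 17.24 against 17.38. Of the 10, 3 rose and 4 fell, and their summed level was log2 20.09 to 20.30 against 20.26 to 20.54. Myh4 itself fell by 1.33 (adjusted p = 8.3e-07). The summed level of 8 fibroblast and matrix markers was lower in mini-muscle, at log2 14.75 to 15.56 against 15.67 to 16.23, and 5 of the 8 fell. Summed macrophage (11.86 to 12.36 against 12.11 to 12.71), endothelial (12.59 to 13.02 against 12.32 to 13.04) and satellite cell markers (10.10 to 10.85 against 9.97 to 10.73) overlapped between the groups, as did the sums of the 3 found adipocyte, 3 nerve and 2 erythroid markers. Among single markers, Csf1r (-0.44) and Lyz2 (-0.64), 2 of the 3 tested macrophage markers, fell. Pecam1 (0.50), 1 of 6 endothelial markers, and Fabp4 (0.31), 1 of 2 tested adipocyte markers, rose. The other endothelial markers differed by -0.06 to 0.22 and did not pass. The other tested adipocyte marker, Adipoq, differed by -0.41 and did not pass either (limma adjusted p = 0.22). The erythroid markers found were below the dim limit. The 3′ minus 5′ log2 difference of the Gapdh control probe sets, a measure of RNA integrity and labelling, was -0.19 to -0.09 in mini-muscle and -0.24 to -0.15 in regular muscle (difference 0.08, two-sided exact permutation test, p = 0.013, adjusted p = 0.039 over 3 quality measures). That of beta-actin and the array medians did not pass (adjusted p = 0.35 and 0.88). The part of matrix cells, of these other cell types and of this labelling difference in the changes above was not tested.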

How the data were processed

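RNA of 12 gastrocnemius samples was hybridised to Affymetrix arrays, from 5 µg of total RNA per the labels' protocols. The authors deposited 1 intensity per probe set on a linear scale; the submitters' processing notes name MAS5, and its settings are not stated. The mean of each array without its lowest and highest 2% was 800.0, so each had been scaled to 1 target. Arrays have no sequencing depth, and their number limits the precision.

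Of 45101 probe sets, the platform annotation named 1 gene for 34958, several for 932 and none for 9211; only the first were used, and 34754 of them matched a RefSeq gene (GRCm38.p6) with 0 symbols changed. Eif1, Eif2s1, Eif3g, Eif4g1 and Eef1g had no probe set of their own and were not analysed. The planned pairs of Eif4g3 with Eif4g1 and of Eif1b with Eif1 were therefore not tested. Intensities were taken to log2 with no offset and no further normalization. Genes at or above the median gene mean were fitted with limma 3.58.1 in R 4.3.3 (lmFit; eBayes, trend = TRUE; two-sided tests). Correlations between arrays over these genes were 0.954 to 0.974 within groups and 0.924 to 0.948 between them. Differences between related genes and array quality were tested over the 924 assignments of arrays to groups. The test was checked on simulated data. Replicate numbers follow the order of the sample records and pair nothing. Alternatives were quantile normalization, median centring, an offset of 64, no dim filter, the brightest 6065 genes alone, the mean of all probe sets, no trend, and leaving out each array.

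Named genes were those that passed (up to 12 in each direction in full), a fixed set of well-known factors, and up to 3 genes of each pathway list with the smallest adjusted p. Other members are given by their difference. The members and lists were chosen with earlier results of these data known.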

Additional observations from a re-analysis of the deposited data

Results flagged for a closer look

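In 3 of the 104 groups of 6 arrays examined (52 genes in 2 groups), 1 array stood far from the others, where chance gives about 1 in 20. Eif3d read 12.39 on mini-muscle replicate 3, and 12.62 to 12.71 on the other mini-muscle arrays. Eif4ebp2 read 11.78 on regular-muscle replicate 6, against 11.13 to 11.32 on the rest of its group. Eif1ad read 9.92 on mini-muscle replicate 5, and 10.38 to 10.60 on the other mini-muscle arrays.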

How the results depend on the processing

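The number of genes that rose was 10, and 6 with the mean of all probe sets; leaving out each array gave 10 to 11. The number that fell was 13, 4 with arrays centred on their medians and 8 without the intensity trend; leaving out each array gave 10 to 13. Of the 23 genes that changed, 9 kept their call under every alternative that tested them and 19 without each array in turn; none changed direction with a call. Centring ended 9 of 13 decreases and 1 of 10 increases (Eef1d), and the mean of all probe sets ended 4 of each. With that mean Eif3h was not tested and 8 of the 13 decreases kept their call. Eif1ax was newly among the 9 that then fell. The cause of these losses was not tested. The paired differences of Eif4a2 with Eif4a1 and Eif4e2 with Eif4e were -0.15 and 0.17 with the mean of all probe sets (adjusted p = 0.44 and 0.46), and the first ranged from -0.34 to -0.24 without 1 array. No paired analysis was possible because the labels give no replicate numbers that the groups share. Genes near background, such as the kinases of eIF2 alpha, have the widest errors.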
